A study of Rattus norvegicus with 4 samples.

Results

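The SOX family of transcription factors was followed in rat articular and xiphoid cartilage through 8 genes: Sox4, Sox5, Sox6, Sox8, Sox9, Sox11, Sox17 and Sox18. They were taken by symbol from a table of 13554 genes, and 8 of 8 were found there. RNA came from Sprague-Dawley rats aged 8 to 10 weeks, with 2 libraries of articular cartilage, which covers bone ends in joints, and 2 of xiphoid cartilage, the lower tip of the breastbone. The labels name no genetic change and no treatment, and they do not say which joint was sampled, of which sex the rats were or how many animals a library holds. The p-values therefore measure the spread between these libraries, which may be technical.

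SOX proteins bind DNA through a high-mobility-group box, bend it, and act with partner factors, and they are grouped by the likeness of that box. In cartilage, SOX9 is needed for cells to become chondrocytes and switches on the genes of the cartilage matrix. SOX5 and SOX6, which lack an activation domain of their own, bind beside it and strengthen that action, and the 3 proteins are known as the SOX trio. SOX8 belongs to the SOXE group with SOX9 and SOX10. SOX4 and SOX11 form the SOXC group of progenitor cells, with SOX12. SOX17 and SOX18 form the SOXF group of endothelial cells, with SOX7.

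The libraries held 7351006 to 8434820 estimated counts. Levels are given as CPM, counts brought to a common library size with factors from the trimmed mean of M-values. They were not corrected for transcript length, so levels are compared between tissues and not between genes. Differences are log2 fold changes of articular against xiphoid cartilage, positive where articular cartilage was higher. A gene was called where its Benjamini-Hochberg adjusted p over all 11202 genes tested, from the quasi-likelihood test of edgeR, was under 0.05. Called genes made up 49.5% of all tested, with 25.0% higher in articular and 24.5% higher in xiphoid cartilage. The libraries of the 2 tissues did not overlap in CPM for 74.9% of the genes tested. Other tissues were also sampled unequally. Summed CPM of the listed skeletal muscle markers were 237 to 306 in articular and 9119 to 9242 in xiphoid libraries, and those of adipocytes 88.6 to 101 against 2589 to 3189. Erythroid markers summed to 199 to 202 CPM in articular and 6.85 to 7.17 in xiphoid libraries, and osteoclast markers to 2010 to 2098 against 175 to 184.

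The SOX genes did not move as one block. Articular cartilage carried more Sox4 and Sox5, xiphoid cartilage carried more Sox17 and Sox18, and Sox6, Sox8 and Sox9 did not pass the test. Sox11 was too low to be tested. Thus 4 of the 7 genes tested were called, beside 49.5% of all genes, and 5 of the 7 did not overlap between tissues, beside 74.9%. The median log2 fold change of the 7 genes was 0.18, against -0.02 over all genes tested. Both shares lay near those of the whole table.

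**Figure D1:**
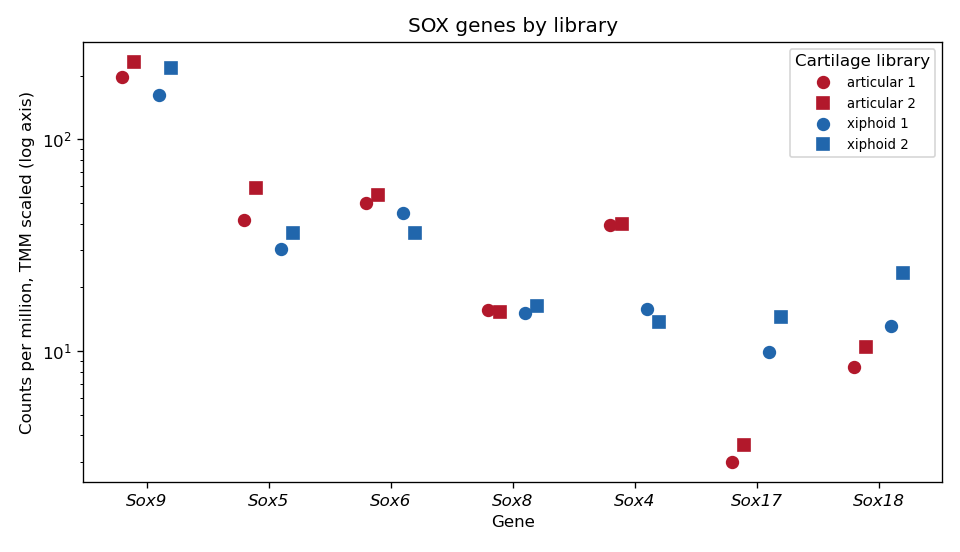
CPM of 7 SOX genes (log axis) in each of the 4 libraries, red for articular and blue for xiphoid cartilage, with a circle for library 1 and a square for library 2. The libraries of the tissues are apart for Sox4, Sox5, Sox6, Sox17 and Sox18 and overlap for Sox8 and Sox9. Sox11, with 1 count in all, is not drawn.

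Sox9 (Entrez gene 140586), the factor that defines the chondrocyte, stood at 197 and 231 CPM in the articular libraries and at 161 and 217 CPM in the xiphoid libraries. The tissues overlapped, because the higher xiphoid library lay above the lower articular one. The means were 214 ± 24.1 and 189 ± 39.5 CPM for the articular and xiphoid libraries (SD, n = 2). The log2 fold change was 0.18 (95% interval -0.19 to 0.55, adjusted p = 0.415). With 1371 to 1797 counts a library behind it, Sox9 was the most deeply counted of the 8 genes. The sign of the small difference depended on which libraries were kept. The log2 fold change was -0.0145 without xiphoid library 1, 0.06 without articular library 2 and 0.42 without xiphoid library 2, and none of these passed.

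Sox5 (Entrez gene 140587), a partner of SOX9 in the trio, was at 41.5 and 59.1 CPM in the articular libraries and at 30.2 and 36.0 CPM in the xiphoid libraries. Both articular libraries lay above both xiphoid libraries, and the articular libraries were the more widely spread. The means of 50.3 ± 12.4 and 33.1 ± 4.11 CPM (SD, n = 2) gave a log2 fold change of 0.60 (SE 0.20), or 1.52-fold, with an adjusted p of 0.0237. The call rested on articular library 2 and on xiphoid library 1. Without the former the log2 fold change was 0.33 (adjusted p = 0.164), and without the latter 0.49 (adjusted p = 0.151). RefSeq places 6 other loci within the long Sox5 gene in assembly GRCr8, and none of them is listed in the count table. Short and long SOX5 proteins arise from the same gene, and counts per gene do not separate them.

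Sox6 (Entrez gene 293165), the other partner, was at 50.1 and 54.5 CPM in the articular libraries and at 44.9 and 36.2 CPM in the xiphoid libraries. The articular libraries were again the higher ones and did not overlap with the xiphoid libraries. The log2 fold change of 0.36 (95% interval -0.01 to 0.74) did not pass (adjusted p = 0.095). It ranged from 0.23 without xiphoid library 2 to 0.54 without xiphoid library 1, and passed without articular library 1 (0.42, adjusted p = 0.0463). SOX6 also acts outside cartilage, in the maturation of red cells and in fast muscle fibres, where it holds back slow-fibre genes. Of 10 tested erythroid markers, 10 were higher in articular cartilage, and of 11 tested skeletal muscle markers 10 were higher in xiphoid cartilage. These directions were called for 25.0% and 24.5% of all genes tested. The slow-fibre list had 5 of 6 tested genes higher in xiphoid cartilage, with summed CPM of 51.0 to 74.8 in articular and 300 to 366 in xiphoid libraries. The part of these cells in the Sox6 level was not tested. Of the 10 transcripts that the table lists for Sox6, 9 were assembled by the submitters' pipeline, more than for any other of the 8 genes.

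Within the trio, the counts of Sox5 per 100 Sox9 counts were 21.1 and 25.6 in articular and 18.8 and 16.6 in xiphoid libraries. This ratio did not overlap between the tissues. The counts of Sox6 per 100 Sox9 counts were 25.5 and 23.6 in articular and 27.9 and 16.7 in xiphoid libraries, so that xiphoid library 1 lay above and xiphoid library 2 below both articular libraries. These ratios mix transcripts of unequal length and are read only between libraries.

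RefSeq's promoter table for assembly GRCr8 matched 2 of the 8 genes, Sox6 and Sox11. They are shown because they were the members with a sequence there, and they differ in level, Sox6 with 264 to 424 counts in each library and Sox11 with 1 count in all. Each sequence covers 300 bases around the start of the gene, most of them upstream, with Sox6 at chr1:179665322-179665621 and Sox11 at chr6:49738745-49739044, both on the minus strand. Capitals mark the SOX-like motifs ACAATG and ACAAAG on either strand (CATTGT and CTTTGT when reversed), which do not overlap here.
Sox6: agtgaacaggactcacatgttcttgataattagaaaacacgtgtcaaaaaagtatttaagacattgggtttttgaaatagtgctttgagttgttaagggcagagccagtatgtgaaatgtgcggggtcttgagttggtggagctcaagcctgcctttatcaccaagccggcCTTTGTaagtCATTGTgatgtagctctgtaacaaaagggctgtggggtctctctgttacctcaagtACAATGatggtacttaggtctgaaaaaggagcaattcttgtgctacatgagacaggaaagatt
Sox11: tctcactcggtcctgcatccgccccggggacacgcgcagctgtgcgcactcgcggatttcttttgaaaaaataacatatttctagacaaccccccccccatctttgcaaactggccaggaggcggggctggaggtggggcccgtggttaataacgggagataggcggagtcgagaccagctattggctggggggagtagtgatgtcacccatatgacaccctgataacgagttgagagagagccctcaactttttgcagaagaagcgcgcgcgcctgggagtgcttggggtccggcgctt
The Sox6 window held 3 matches and that of Sox11 held 0. At least 1 of these motifs was found in 29.1% of all 33469 promoters of the table, so a match is common and is a description of letters, not of binding. The Sox6 window had 42% G and C and 3 CG steps, against 58% and 20 for Sox11.

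Sox8 (Entrez gene 302993), the SOXE relative of SOX9, was the most even of the 8 genes. It stood at 15.6 and 15.3 CPM in the articular libraries and at 15.1 and 16.3 CPM in the xiphoid libraries, and the articular values lay between the xiphoid ones. The log2 fold change was -0.02 (95% interval -0.48 to 0.43, adjusted p = 0.941), an interval that still allows a modest change either way. SOX8 is also made by glia, and the glial member of the group, Sox10, had 1 count in all, in articular library 1. Of 12 tested markers of Schwann cells, 7 were higher in xiphoid cartilage, beside 24.5% of all genes tested. Summed CPM of the Schwann cell markers were 686 to 734 in articular and 3058 to 3135 in xiphoid libraries. S100b and Gfap made up most of the xiphoid sum. S100b is also a gene of chondrocytes. The part of such cells in the Sox8 level was not tested.

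Sox4 (Entrez gene 364712), a SOXC factor of progenitor cells, osteoblasts and early B cells, had the lowest adjusted p of the 8 genes. It was at 39.4 and 39.7 CPM in the articular libraries and at 15.8 and 13.7 CPM in the xiphoid libraries. The libraries of each tissue lay close together and far from those of the other. The means of 39.5 ± 0.234 and 14.7 ± 1.45 CPM (SD, n = 2) were 2.68-fold apart (log2 fold change 1.42, SE 0.19, adjusted p = 5.78e-05). Leaving out any one library gave 1.34 to 1.54, and each of these passed.

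Markers of B cell precursors and osteoblasts, which use SOX4, were mostly higher in articular cartilage too, a direction called for 25.0% of all genes tested. Of 9 tested genes of B cell precursors, 8 were higher in articular cartilage, and the list summed to 62.8 to 68.0 CPM there against 14.0 to 15.2 CPM in xiphoid libraries. Ebf1 made up most of the xiphoid sum with 13.3 CPM. It lay on the xiphoid side and did not pass (log2 fold change -0.56, adjusted p = 0.155), but passed in that direction without articular library 2 (-1.15, adjusted p = 0.00227). Vpreb1 and Igll1, the surrogate light chain of the precursor receptor, and Dntt, the enzyme that adds bases to rearranging receptor genes, had 0 counts in both xiphoid libraries. So did Cd79b, and Pax5, which had only 5 and 2 counts in the articular libraries and was not tested. Of 9 tested osteoblast markers, 7 were higher in articular cartilage, with Sp7, the transcription factor osterix, at 56.3 against 1.26 CPM. Their summed CPM, mostly Col1a1 and Col1a2, were 9495 to 9834 in articular and 9602 to 9935 in xiphoid libraries. Lists of other cells of blood and bone went the same way. Of 7 tested neutrophil genes, 6 were higher in articular cartilage, with summed CPM of 184 to 187 against 10.6 to 12.7. Erythroid and osteoclast markers were higher there in 10 of 10 and 7 of 7 tested. Sox4 had 134 and 100 counts in the xiphoid libraries. The part of these cells in the articular level was not tested. In bulk tissue, fewer cells of a type and less RNA per cell cannot be told apart.

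Sox11 (Entrez gene 84046), the SOXC relative of SOX4, had 1 count in articular library 1 and 0 in the other libraries. A count of 0 over both xiphoid libraries allows up to 3 counts, or 0.19 CPM, and covers counting error only. Sox11 was therefore not detectable above that limit, and no fold is given. Sox12, the third of the group, was low and uneven at 4.79 and 1.41 CPM in the articular and 6.59 and 4.93 in the xiphoid libraries (log2 fold change -0.88, adjusted p = 0.141). It passed without articular library 1, at -2.02 (adjusted p = 0.00164). Among genes linked with SOXC factors, 5 of 7 were tested. Tead2, a DNA-binding partner of YAP, was called toward articular cartilage (3.76 ± 0.775 against 1.08 ± 0.0266 CPM, adjusted p = 0.00816), though not without articular library 1 (adjusted p = 0.0599). Wnt5a, a ligand of the noncanonical Wnt pathway, was called toward xiphoid cartilage (8.76 ± 1.74 against 2.88 ± 1.196 CPM, adjusted p = 0.0029). Fzd3, Ror2 and Dcx did not pass, Dcx doing so without articular library 1 (adjusted p = 0.0427).

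**Figure D2:**
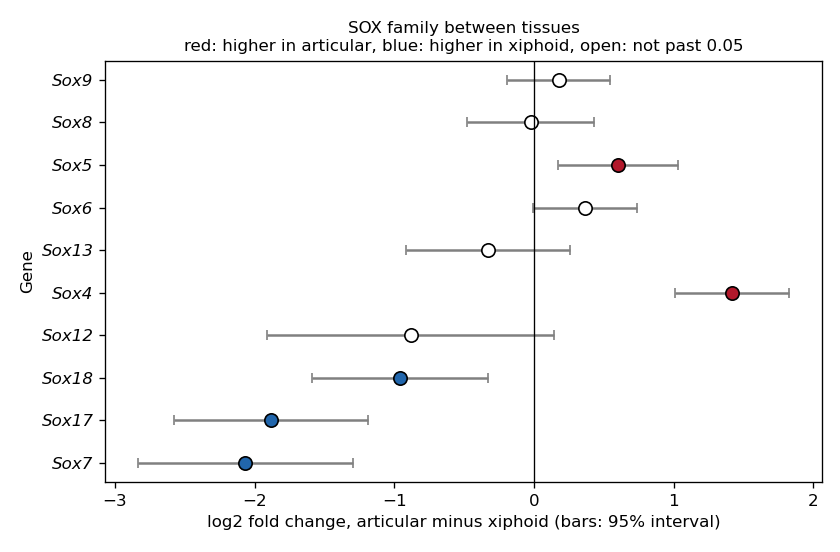
log2 fold change of articular against xiphoid cartilage with its 95% interval for the 10 SOX genes tested, ordered by group (SOXE, SOXD, SOXC and SOXF from top to bottom). The SOXF genes Sox18, Sox17 and Sox7 lie on the xiphoid side at -0.96, -1.88 and -2.07, and Sox4 lies farthest to the articular side at 1.42.

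The SOXF genes shared a direction. Sox17 (Entrez gene 312936), a factor of arterial endothelium, was at 2.99 and 3.60 CPM in the articular libraries and at 9.88 and 14.5 CPM in the xiphoid libraries. The lower xiphoid library still lay well above both articular libraries, although only 25 and 28 counts stood behind the articular values. The means of 3.29 ± 0.428 and 12.2 ± 3.28 CPM (SD, n = 2) were 3.68-fold apart (log2 fold change -1.88, SE 0.32, adjusted p = 4.03e-04). It passed with each library left out, at -1.57 to -2.13.

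Sox18 (Entrez gene 311723), a factor of blood and lymphatic vessels, was at 8.37 and 10.4 CPM in the articular libraries and at 13.2 and 23.4 CPM in the xiphoid libraries. The xiphoid libraries lay above the articular ones but far apart from each other. The means of 9.39 ± 1.44 and 18.3 ± 7.25 CPM (SD, n = 2) were 1.94-fold apart (log2 fold change -0.96, SE 0.29, adjusted p = 0.0158). The call rested on xiphoid library 2, without which the log2 fold change was -0.48 (adjusted p = 0.284). Sox7, the remaining SOXF gene and not among the 8, was at 1.67 and 2.31 CPM in the articular libraries, against 8.00 and 8.77 in the xiphoid libraries (log2 fold change -2.07, adjusted p = 4.26e-04).

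Markers of endothelial cells as a whole were also mostly higher in xiphoid cartilage. Of 15 tested, 9 were higher there, beside 24.5% of all genes tested, and 5 did not pass. Among those 5, Vwf (log2 fold change 0.47, adjusted p = 0.0853), Flt1 (0.32) and Emcn (0.04) leaned to articular cartilage. Tie1 (-0.22) and Cdh5 leaned the other way. Kdr, a VEGF receptor, lay on the articular side (20.5 against 13.3 CPM, adjusted p = 0.0298), a call lost in DESeq2 (adjusted p = 0.0832) and without xiphoid library 2 (0.239). The median log2 fold change of the tested markers was -0.61. Summed CPM of the matched markers were 321 to 331 in articular and 581 to 642 in xiphoid libraries. No matched marker was at 0 in either tissue. Cldn5, a tight-junction protein and known SOX18 target, was at 5.98 ± 1.01 against 40.5 ± 3.96 CPM (adjusted p = 8.6e-07). Ramp2, a co-receptor of adrenomedullin, was at 39.6 ± 14.3 against 183 ± 41.0 CPM (adjusted p = 4.63e-05) and was the largest single part of the xiphoid sum. Pecam1, a general adhesion molecule of endothelium, differed less, at 31.7 ± 2.21 against 54.7 ± 0.0961 CPM (adjusted p = 0.00155). Cdh5, the cadherin of endothelial junctions, did not pass at 15.0 ± 5.38 against 19.3 ± 0.241 CPM (adjusted p = 0.248), though it passed without articular library 1 (0.00851).

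Set against these markers, the tissues overlapped for Sox18 and not for Sox17 or Sox7. Sox18 gave 26.1 and 31.4 counts per 1000 endothelial marker counts in articular and 22.7 and 36.5 in xiphoid libraries. Sox17 gave 9.30 and 10.9 in articular against 17.0 and 22.6 in xiphoid libraries, and Sox7 gave 5.21 and 6.98 against 13.8 and 13.7. The pattern was the same per 100 Pecam1 counts. Sox18 then gave 27.8 and 31.3 against 24.0 and 42.9, Sox17 9.92 and 10.8 against 18.03 and 26.6, and Sox7 5.56 and 6.95 against 14.6 and 16.0. The overlap for Sox18 depends on the markers chosen. Most were higher in xiphoid cartilage, but Kdr had 171 and 160 counts in articular and 126 and 86 in xiphoid libraries. Sox18 had 70 and 81 against 112 and 171, so per Kdr count the tissues would not overlap. With 2 libraries a tissue, an exact permutation test of such ratios cannot go below p = 0.333, so none was run. Within the xiphoid libraries, the counts of Sox17 per 100 Sox18 counts were 75 and 62.0, against 35.7 and 34.6 in the articular libraries.

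**Figure D3:**
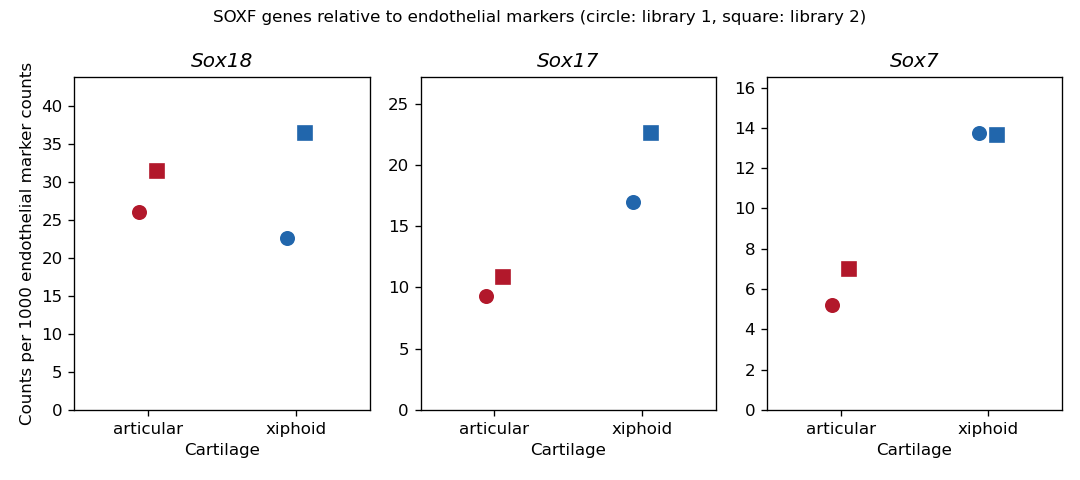
Counts of Sox18, Sox17 and Sox7 per 1000 counts of the listed endothelial markers in each library, articular in red and xiphoid in blue. The 2 tissues overlap for Sox18 and are apart for Sox17 and Sox7.

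Genes of arteries, veins and lymphatic vessels, where SOXF factors act, were mostly higher in xiphoid cartilage as well. Of 9 tested, 5 were called in that direction, beside 24.5% of all genes tested. Toward articular cartilage 1 was called, and 3 did not pass. The median log2 fold change was -1.50. Those that did not pass were Lyve1 (-0.59, adjusted p = 0.0624), Dll4 (-0.17, adjusted p = 0.789) and Flt4 (0.51, adjusted p = 0.349). Flt4 thus leaned to articular cartilage, and the libraries of the tissues overlapped for Dll4 and Flt4. Gja5 and Gja4, connexins of arterial endothelium, were at 3.14 against 0.928 CPM (adjusted p = 0.0147) and 7.53 against 2.57 CPM (adjusted p = 0.00903) in xiphoid against articular cartilage. Nr2f2, a factor of veins and lymphatics, was at 10.9 against 3.84 CPM (adjusted p = 0.00159), and Hey2, a Notch target of arteries, at 7.63 against 2.12 CPM (adjusted p = 0.00123). Reln, which lymphatic endothelium and other cells make, was at 27.8 against 1.59 CPM (adjusted p = 4.96e-07). Efnb2, an arterial ephrin, went the other way, at 5.72 in articular against 1.99 CPM in xiphoid cartilage (adjusted p = 0.0107). The call of Gja5 was lost in DESeq2 (adjusted p = 0.0586) and without articular library 2 (0.051) or xiphoid library 2 (0.17). The call of Gja4 was lost without xiphoid library 1 (adjusted p = 0.058), and that of Efnb2 without articular library 1 (adjusted p = 0.0873). Prox1, the factor of lymphatic identity that SOX18 switches on, had 0 counts in articular libraries and 4 and 1 counts in xiphoid libraries, and was not tested.

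Of the rest of the family, 6 of 12 listed genes were found in the table and 3 were tested. Sox13, which with SOX5 and SOX6 makes up the SOXD group, had 7.90 and 8.35 CPM in the articular against 8.70 and 11.8 in the xiphoid libraries and did not pass (log2 fold change -0.33, adjusted p = 0.334). Its direction was opposite to that of Sox5 and Sox6, a difference that was not tested. Sox2, the factor of stem cells and neural cells, had 3 counts in all and Sox15 had 0 to 3 counts a library.

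**Figure D4:**
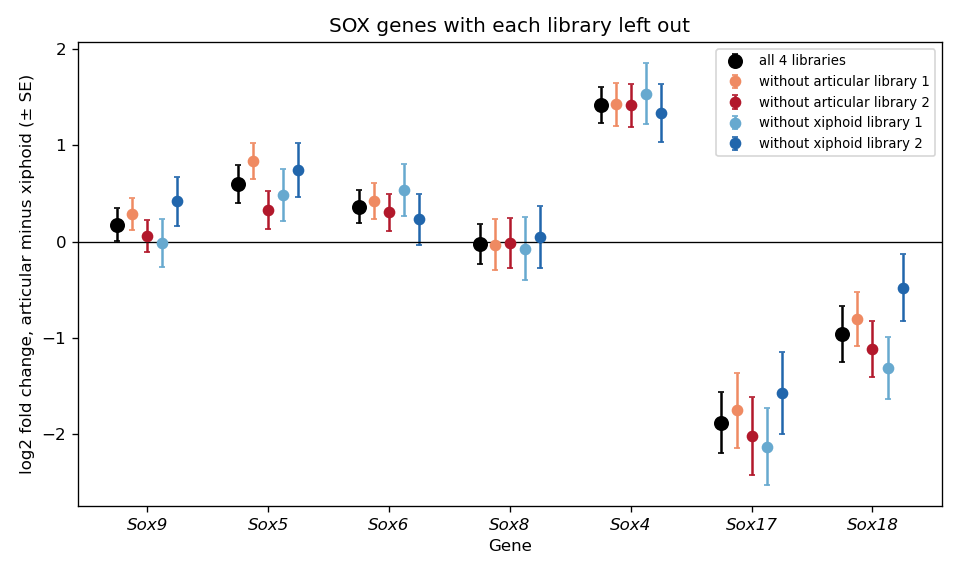
log2 fold change of articular against xiphoid cartilage (± SE) for 7 SOX genes with all 4 libraries (black) and with each library left out in turn. Sox4 and Sox17 keep their side of 0 at a distance, whereas Sox9 runs from -0.0145 to 0.42 and Sox18 comes closest to 0, at -0.48, without xiphoid library 2.

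The genes that SOX9 and its partners are known to switch on in chondrocytes were divided between the tissues. Of 23 listed, 20 were found and tested. Of these, 9 were called toward articular and 8 toward xiphoid cartilage, with 3 that did not pass, so 17 of 20 were called beside 49.5% of all genes. Their median log2 fold change was 0.33, against 0.18 for Sox9 itself. Col9a3, Xylt1 and Susd5 were not analysed here. The list was drawn up with earlier results for several of these genes known, and its counts are a description.

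Collagens of the cartilage fibril lay on the articular side. Col2a1, type II collagen, reached 525 and 371 counts per Sox9 count in articular libraries and 101 and 68.4 in xiphoid libraries, a ratio that did not overlap. Its relatives Col9a1 (log2 fold change 1.86, adjusted p = 2.09e-06), Col11a1 (1.63, adjusted p = 3.51e-06) and Col11a2 (0.87, adjusted p = 0.0138) were higher in articular cartilage, as was Col27a1 (0.85, adjusted p = 0.00278). Col9a2 did not pass, at 2561 ± 1026 against 1922 ± 386 CPM (adjusted p = 0.212), with the articular libraries far apart. It passed without articular library 2 (0.78, adjusted p = 2.22e-04) or xiphoid library 1 (0.65, adjusted p = 0.0483) and was at -0.066 without articular library 1. Hapln1, the link protein of aggrecan, was higher by 2.10. Among 16 promoter windows of listed targets in the RefSeq table, only that of Hapln1 held ACAATG or ACAAAG on either strand. Over all promoters the share was 29.1%, so the match is a description only. Epyc, a small proteoglycan of the growth plate, was at 11.9 ± 4.02 against 0.891 ± 0.0961 CPM (adjusted p = 1.49e-05).

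Other SOX9 targets lay on the xiphoid side. Matn1 (-3.07), a matrilin, and Ucma (-2.69), a Gla protein of chondrocytes, differed most on the log2 scale, followed by Cnmd (-1.68), an inhibitor of vessel growth. Fgfr3, a growth-restraining receptor, and Papss2, which makes the sulfate donor for proteoglycans, both fell by 1.36 in articular against xiphoid cartilage. Mia, a small secreted protein of cartilage also known as CD-RAP, was at 519 ± 13.4 against 755 ± 54.7 CPM (adjusted p = 0.00877), a call lost without xiphoid library 2 (adjusted p = 0.154). Wwp2, which binds SOX9 and hosts a cartilage microRNA, was at 629 ± 9.47 against 826 ± 4.54 CPM (adjusted p = 0.0377), and leaving out articular library 2 or either xiphoid library gave adjusted p-values of 0.0795 to 0.254. With upper-quartile factors its adjusted p was 0.0671, and with a mean CPM of at least 5 required it was 0.0505. Comp, a pentameric matrix protein, differed by -0.49 (adjusted p = 0.0167), a call lost without xiphoid library 1 (0.128) or 2 (0.173).

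Some targets stayed near Sox9. Acan, the aggrecan core protein, gave 42.8 and 33.8 counts per Sox9 count in articular and 36.8 and 26.0 in xiphoid libraries, and the tissues overlapped. Its call (0.49, adjusted p = 0.019) was lost without articular library 1 or either xiphoid library (0.0692 to 0.193). Snorc, a membrane proteoglycan of chondrocytes, had 1658 ± 300 CPM against 1215 ± 135 (a log2 fold change of 0.45, adjusted p = 0.0454). That call was lost without articular library 1 (adjusted p = 0.257), xiphoid library 1 (0.0778) or xiphoid library 2 (0.316). Matn3 (0.25, adjusted p = 0.25, and 0.0266 without articular library 1) and Chst11, a chondroitin sulfotransferase (0.01, adjusted p = 0.972), did not pass. Every one of the 20 targets was detected in all 4 libraries, with Epyc the lowest at 7 counts in each xiphoid library.

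**Figure D5:**
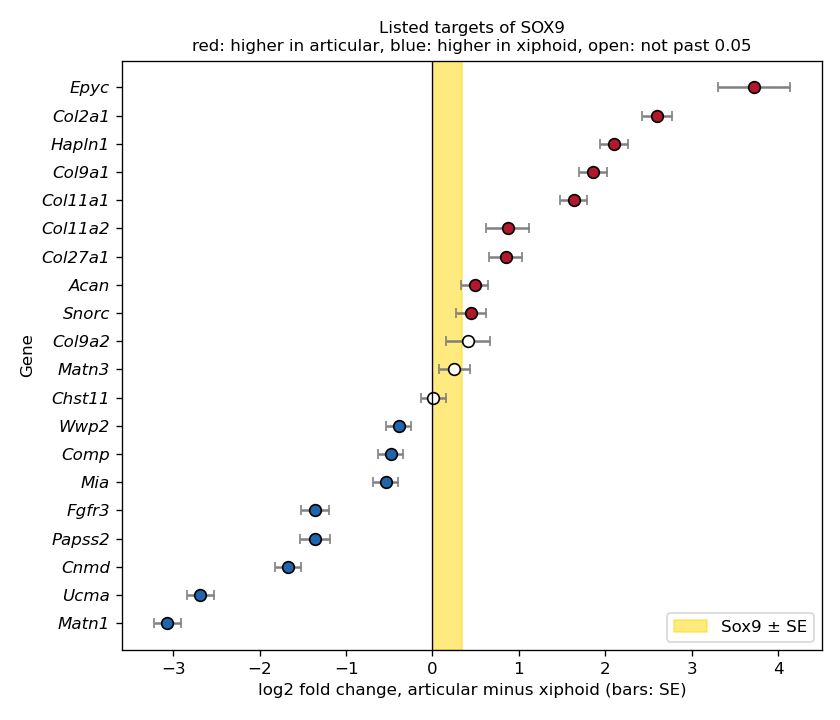
log2 fold change of articular against xiphoid cartilage (± SE) for 20 listed targets of SOX9, with the value of Sox9 ± SE as a yellow band. The targets spread to both sides of the band, from -3.07 for Matn1 to 3.72 for Epyc.

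Transcripts of proteins that work with SOX9 lay on the articular side where they were called. Of 16 tested cofactors and modifiers, 6 were called toward articular cartilage, 0 toward xiphoid cartilage, and 10 did not pass. Among all genes tested, 25.0% were called toward articular and 24.5% toward xiphoid cartilage. The count of 0 was the same at an unadjusted p under 0.05 in edgeR and at the adjusted threshold in DESeq2 and limma-voom. Arid5b, a chromatin partner of SOX9, came nearest to the threshold among those that did not pass (9.12 ± 1.82 against 5.47 ± 0.573 CPM, adjusted p = 0.0556). Kpnb1, an importin that carries SOX9 into the nucleus, was at 102 ± 9.70 in articular against 55.4 ± 1.27 CPM in xiphoid cartilage (log2 fold change 0.89, adjusted p = 4.87e-04). Kat5, an acetyltransferase, was higher by 0.61 (adjusted p = 0.00805), Med12, a Mediator subunit, by 0.57 (adjusted p = 0.0154) and Kdm4b, a histone demethylase, by 0.62 (adjusted p = 0.0196). Ctbp2, a corepressor bound by SOX6, was higher by 0.61 (adjusted p = 0.0279). The calls of Kat5, Med12, Kdm4b and Ctbp2 were each lost without xiphoid library 1, with adjusted p-values of 0.106 to 0.12. Med12 was also lost without xiphoid library 2 (0.0872), Kdm4b without articular library 1 (0.139) and Ctbp2 without articular library 2 (0.252). Crebbp, an acetyltransferase that SOX9 recruits, did not pass (adjusted p = 0.103). Arid5b passed with upper-quartile factors (adjusted p = 0.0442) and without articular library 2 (0.0278), and Crebbp without articular library 1 (0.011).

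Genes known to act on Sox9 transcription went both ways. Of 17 tested, 5 were called toward articular and 4 toward xiphoid cartilage, and 8 did not pass. Over all genes tested, 25.0% and 24.5% were called in these directions, so the split was near that of the whole table. Hif1a, the oxygen-sensing factor that raises Sox9, was at 633 ± 152 in articular against 169 ± 24.6 CPM in xiphoid cartilage (log2 fold change 1.90, adjusted p = 5.43e-06). Bmp2, a ligand that induces Sox9, was at 17.4 ± 1.31 against 4.36 ± 1.01 CPM (adjusted p = 7.11e-05), and its receptor Bmpr1a was higher by 0.68 (adjusted p = 0.00744). Hes1, a target of Notch signalling, was at 20.7 ± 1.32 against 8.67 ± 2.46 CPM (adjusted p = 0.00109), and Creb1 was at 8.56 ± 1.93 against 3.13 ± 0.606 CPM (adjusted p = 0.00345). On the xiphoid side, Bmpr1b had 167 and 142 counts, against 1 count in each articular library (adjusted p = 1e-07). Yap1, a mechanosensitive coactivator, was at 149 ± 0.0577 against 238 ± 15.4 CPM (adjusted p = 0.00192). Ctnnb1, the Wnt effector that opposes SOX9, was at 309 ± 16.0 against 428 ± 7.72 CPM (adjusted p = 0.0156), and Fgf18 at 0.193 ± 0.272 against 2.58 ± 0.995 CPM (adjusted p = 0.00403). The call of Bmpr1a was lost without xiphoid library 1 (adjusted p = 0.0655), and that of Ctnnb1 without xiphoid library 1 (0.15) or 2 (0.122). Sox9 itself did not pass beside these differences.

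Genes of chondrocyte hypertrophy, a stage that SOX9 is known to delay, were all on the articular side. Of 10 tested, 10 were called, with a median log2 fold change of 6.54, beside 25.0% of all genes called in that direction. The list held Runx2, Runx3, Ihh, Mmp13, Alpl, Ibsp, Spp1, Vegfa, Panx3 and Pth1r, while Mef2c and Col10a1 were not analysed here. Runx3, a RUNX factor of prehypertrophic cells, had 100 ± 3.21 CPM against 1.45 ± 1.05 (a log2 fold change of 6.15, adjusted p = 1.06e-08), and Vegfa, which draws vessels into cartilage, was at 650 ± 81.1 against 48.4 ± 4.36 CPM (adjusted p = 6.57e-09). Beside them Sox5 was higher in articular cartilage, Sox6 and Sox9 did not pass, and none of the 3 was called lower. A link between these levels and hypertrophy was not tested, and bulk tissue does not show SOX levels in hypertrophic cells. Markers of osteoblasts and osteoclasts, which share several of these genes, were higher there too (7 of 9 and 7 of 7 tested).

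Genes with the pattern most like that of Sox9 over the 4 libraries, by Euclidean distance in centred log2 CPM, were Mkrn2, Dpagt1 and Tmem33, at 0.0182 to 0.0324. Within a distance of 0.3 lay 708 genes, so a profile of this shape is common in the table. Nearest to Sox4 were Epcam, Siglec15 and Myef2, at 0.0471 to 0.067, with 229 genes within 0.3. Likeness over 4 libraries is a description only.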

How the data were processed

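The authors deposited 1 table of expected counts, that is, an estimated count of reads for each gene and library, made without scaling to depth or length, per the file headers. Of its values 3.91% were not whole. The submitters' processing notes name RSEM 1.2.12, Bowtie2 2.2.6, StringTie 1.2.1 and HISAT2 2.0.4 and the build rn6, but not which step each served. Whether counting used strand is not stated, and a read in 2 overlapping genes may have gone to either. The RefSeq tables were of assembly GRCr8, not rn6, and served for names (13482 identifiers matched), overlaps and promoter sequences.

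Counts were rounded and filtered with filterByExpr by tissue, which left 11202 of 13554 genes tested. Libraries were scaled by TMM (factors 0.994 to 1.009) and tested with edgeR 4.0.16 (glmQLFit, robust, and glmQLFTest, 2-sided) in R 4.3.3, with tissue as the only term, 2 residual degrees of freedom and Benjamini-Hochberg adjustment. The standard error is the log2 fold change divided by the square root of F, and the 95% interval uses the test's total degrees of freedom. The procedure was tried on simulated data with these library sizes and 11029 genes tested. It recovered 67% of 91 genes changed by 1 and 92.7% of 109 changed by 2 on the log2 scale between articular and xiphoid cartilage. There were 13 false calls among the unchanged genes. No other genes were changed and all dispersions came from the fitted trend, whereas 49.5% of genes were called in the real data. These rates therefore need not hold for the real data.

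The members and the 19 gene lists (235 entries, 203 matched) were chosen with earlier results of these data known. All 8 members were described, with up to 5 genes of each other list by lowest adjusted p, all detected relatives of the SOX family, all SOX9 targets, genes against the majority of their list, and the 3 nearest profiles to Sox9 and to the member with the lowest adjusted p. Other genes named were chosen after their values were seen, and some listed genes are not reported here by name. Alternatives were RLE, upper-quartile or no factors, testing every gene with a count, testing only genes with a mean CPM of 5 or more, limma-voom (limma 3.58.1), DESeq2 1.42.0, a replicate block, leaving out 119 markers of other cell types or 3 ribosomal RNA rows, and leaving out each library. The ratios to Pecam1 and to endothelial markers without Ramp2 and Cldn5 were added after seeing the data.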

Additional observations from a re-analysis of the deposited data

How the results depend on the processing

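The number of SOX genes called stayed at 2 in each direction under other scalings, filters and tools, and was 3 and 2 with a replicate block. With 1 library left out, 1 to 3 were higher in articular and 1 to 2 were higher in xiphoid cartilage, and the lone library of a tissue is then assumed to vary like the other tissue. Sox4, Sox8, Sox9 and Sox17 kept their side of the threshold in every alternative run. None of the values that changed sign passed the test under that alternative. Sox8 was 0.023 with upper-quartile factors. With each library left out, Sox8 ran from -0.071 to 0.047, Sox9 from -0.0145 to 0.42, Col9a2 from -0.066 to 0.78, Chst11 from -0.064 to 0.077 and Fzd3 from -0.46 to 0.18. Apart from construction with fewer libraries, the cause was not tested.

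The replicate numbers are not stated to mark a shared animal or day. The deviations of libraries numbered 1 correlated at 0.269 across genes, a single comparison with 2 libraries a tissue. With the replicate block, 3344 and 3484 genes were called against 2799 and 2745 without it, 77 and 68 listed genes against 72 and 64, and Sox6 (0.37, adjusted p = 0.0122), Sox12, Col9a2, Matn3, Crebbp, Arid5b and Ebf1 passed.

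Without Ramp2 and Cldn5 among the endothelial markers, Sox18 gave 29.4 and 37.7 counts per 1000 in articular and 34.3 and 59.7 in xiphoid libraries and still overlapped, and Sox17 gave 10.5 and 13.02 against 25.7 and 37.0. Counts limit Sox11, Sox17 in articular cartilage and the lowest relatives.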
